A study of Drosophila melanogaster with 2 samples.

Results

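The regions described here are ChIP-seq peaks of the tagged zinc finger protein CG3407 that lie at the start of a single Drosophila melanogaster protein-coding gene, away from any divergent gene pair. A peak was counted when its summit lay within 500 bp of a protein-coding transcription start site and no coding gene starting in that window had a divergent neighbour, meaning another gene, coding or non-coding, that starts up to 1000 bp upstream and is read the other way. Of the peaks that passed the irreproducible discovery rate (IDR) filter, the rule found 753, which is 18.4% of that list and 47.7% of its 1579 peaks at coding starts. Of the other IDR peaks, 826 lay at coding starts with a divergent neighbour, 136 at starts of non-coding genes only and 2374 away from every start.

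All libraries came from whole embryos of mixed sex of the strain CG3407-GFP, collected from 0 to 14 h, in which a transgene adds green fluorescent protein to the C-terminal end of CG3407. The chromatin was sonicated to a size range of 200 to 800 bp, and the labels give 2 biological replicates of this 1 group. The labels name a transcription factor ChIP-seq assay, but their description field calls the same libraries an input control; they are treated here as the ChIP libraries because the deposited peak lists were made from them against a separate control. That control, and embryos without the tag, were not analysed here, so every comparison below is between classes of regions in the same embryos.

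A promoter is the DNA around a transcription start site at which RNA polymerase II assembles, and in flies many promoters are shared by a pair of genes that are read outwards from one stretch of open DNA. At a single promoter there is 1 gene to read a position against, upstream or downstream, whereas between divergent genes a position can be read against either start. Core promoter elements sit at set places: the TATA box a short way before the start, the initiator on it, and the motifs known as motif 1, motif 6 and the DNA replication-related element (DRE) near the starts of broadly used genes. Ribosomal protein genes, which encode the parts of the ribosome, have starts of an unusual, pyrimidine-rich kind.

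The windows below show the summits of 7 high-scoring single promoter peaks, chosen from the highest 25 so that the base composition can be seen, all outside annotated exons. Each is the 101 bases centred on the summit in the BDGP Release 6 (dm6) assembly, from RefSeq's copy, read 5′ to 3′ on the strand of the nearest gene. Capitals mark runs of 6 or more A and T bases.
SoxN (chr2L:8825222-8825322, plus strand): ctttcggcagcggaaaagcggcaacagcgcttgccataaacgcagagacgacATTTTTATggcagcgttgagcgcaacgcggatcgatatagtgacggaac
CG14100 (chr3L:19590573-19590673, minus strand): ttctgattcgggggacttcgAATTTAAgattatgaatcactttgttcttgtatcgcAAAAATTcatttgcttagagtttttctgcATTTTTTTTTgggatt
ph-p (chrX:2137275-2137375, minus strand): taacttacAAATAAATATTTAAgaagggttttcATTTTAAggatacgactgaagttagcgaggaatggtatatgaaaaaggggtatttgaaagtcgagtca
CG18549 (chr3R:12449116-12449216, plus strand): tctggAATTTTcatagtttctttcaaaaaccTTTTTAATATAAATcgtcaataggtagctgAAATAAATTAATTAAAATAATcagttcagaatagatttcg
CG31145 (chr3R:23669802-23669902, minus strand): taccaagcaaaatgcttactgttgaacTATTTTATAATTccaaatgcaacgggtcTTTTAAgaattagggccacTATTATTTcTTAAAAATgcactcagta
CG1635 (chr3R:31588472-31588572, plus strand): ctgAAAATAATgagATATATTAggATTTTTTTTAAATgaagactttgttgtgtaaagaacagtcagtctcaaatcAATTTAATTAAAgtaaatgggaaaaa
E23 (chr2L:3355020-3355120, minus strand): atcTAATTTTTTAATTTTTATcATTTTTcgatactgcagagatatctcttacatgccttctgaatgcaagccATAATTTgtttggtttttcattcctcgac
SoxN encodes a Sox transcription factor of the neural ectoderm, and its window had a GC content of 53.5% with 8 bases in such runs. The CG18549 and CG1635 windows stood at the other end, each with a GC content of 23.8% and 41 bases in A and T runs. The CG14100, ph-p and CG31145 windows had the same GC content of 31.7%, close to the median of 33.7% over all 753.

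Scores in the IDR list, which are on the list's own scale, ran from 163.1 to 7980 for the single promoter peaks, with a median of 274.5 and quartiles of 201.7 and 446.4. The highest was at SoxN, with 7980, followed by CG4004 with 7779; both stood far above CG14100, which had 2545. ph-p, which encodes a subunit of the Polycomb repressive complex PRC1, had 2178. The remaining named peaks lay between 2017 at CG1888 and 1081 at TRAM, which encodes a protein of the secretory translocation channel. Among them were Toll-7, a Toll family receptor gene, with 1428; E23, an ecdysone-induced transporter gene, with 1352; Rtnl1, a reticulon gene of the endoplasmic reticulum, with 1291; and Hsp27, a small heat shock protein gene, with 1241. Genes of metabolism and protein modification were present too: aay, a phosphoserine phosphatase gene, had 1234, Gapdh2, of glycolysis, 1129, and Alg3, of N-glycan assembly, 1320. The signalling and regulatory genes fray, msi, Btk, Sox14 and RapGAP1 had 1188, 1149, 1145, 1110 and 1102. The last of the 25, CG18549, Tina-1, RluA-1, CG31145, CG1635, CG13921 and CG3961, scored from 2009 at CG18549 to 1097 at CG3961. At each of the 25 genes the highest summit lay upstream of its nearest start, from 54 bp at CG4004 to 470 bp at ph-p. A second ph-p peak, with a score of 1285 at rank 83, lay 411 bp downstream of another start of that gene.

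The replicate lists were scored separately, each on its own scale. SoxN had 3242 in replicate 1 and 4728 in replicate 2 at rank 5 in both, CG14100 had ranks 23 and 36, and Hsp27 had 511 and 730 at ranks 97 and 90. Gapdh2 had 364 and 761, at ranks 226 and 82, one of the wider gaps among the 25. Of the 753 peaks, 726 overlapped a candidate of replicate 1, 749 one of replicate 2 and 722 one of each. From each replicate list the highest-scoring candidates were taken, as many as the IDR list holds, and are called here its highest candidates. Peaks that overlapped one of the highest candidates of both replicates numbered 579 (76.9%), against 75.3% of divergent promoter peaks and 76.5% of peaks away from every start. Any overlap counted, so neighbouring peaks can share a candidate. Both fray summits, at ranks 96 and 1545, were matched to the candidates at ranks 110 and 105. Over the 722, the replicate scores had a Spearman correlation of 0.79 and a Pearson correlation of 0.84 on the log10 scale; the 2 lists share the control, and the peaks were selected for agreement, so these are descriptions. Among the 722, the widest gap in rank, taken as a ratio, was at E(spl)mbeta-HLH, a Notch target gene. It stood at 21828 in replicate 1 and 2194 in replicate 2. The 27 peaks without a candidate in replicate 1 have no rank there and were left out of this comparison. CaMKI stood at 13399 and 1462, Pgm1 at 16134 and 1894, and DopEcR at 18353 and 2288, so these 4 all stood higher in replicate 2.

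**Figure D1:**
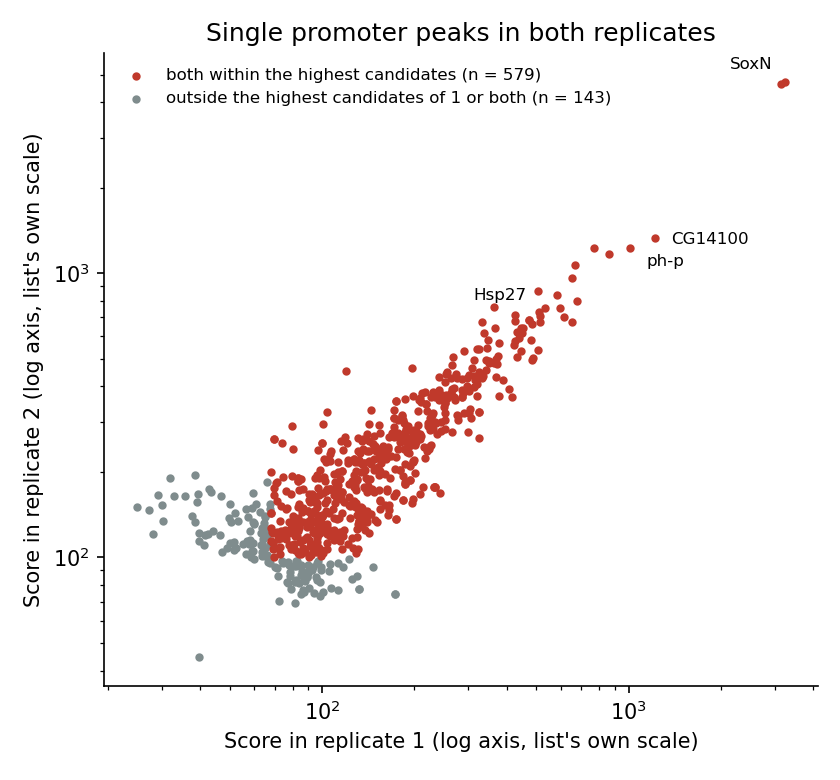
Scores of the 722 single promoter peaks with a candidate in both replicates, replicate 1 on the horizontal and replicate 2 on the vertical log axis, each on its list's own scale. Red points, 579 in number, overlap one of the highest candidates of both replicates; SoxN and CG4004 form the isolated pair at the top right.

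Single promoter candidates passed into the IDR list less often than divergent ones. The pooled list is labelled as peaks and background used as input for IDR. A candidate outside the IDR list, here and below, may therefore be background rather than a weaker peak. Of the 3967 candidates of the pooled list that met the rule, 753 were in the IDR list, or 18.98% (Wilson 95% interval 17.8 to 20.2), against 28.3% (26.7 to 29.97) of 2918 divergent promoter candidates and 13.6% of all 30000 candidates. The difference of −9.33 percentage points (Newcombe 95% interval −11.4 to −7.29) also appeared when each replicate's highest candidates were taken alone, at 22.2% against 36.3% in replicate 1 and 17.2% against 23.9% in replicate 2. Once in the list, the single promoter peaks had a median score of 274.5 (260 to 289.2), with an interval overlapping that of the divergent peaks, 282.4 (270.6 to 297). Peaks away from every start had a median of 251.4 (245.8 to 259.3). Of the single promoter peaks 15.7% were among the first 500 ranks, against 14.4% of the divergent peaks and 10.1% of the peaks away from starts. All intervals here cover counting error only.

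Most summits at single promoters lay upstream of the nearest coding start, most often 100 to 200 bp before it. For 220 of the 753 that start was internal to its gene, so upstream there does not mean outside the gene. Of the 753, 616 lay upstream, or 81.8% (78.9 to 84.4), against 1991 of the 3214 candidates that met the same rule but were not in the IDR list, or 61.95% (60.3 to 63.6). The difference was 19.9 points (16.5 to 22.95), and it was 21.95 points in replicate 1 and 18.8 in replicate 2. The median summit was at −161 bp (−173 to −149), with quartiles of −271 and −49, against −69 bp (−80 to −59) for the other candidates. Summits between 300 and 50 bp upstream made up 54.45% of the single promoter peaks and 35.9% of the other candidates, a difference of 18.5 points (14.6 to 22.4). Summits within 50 bp of the start were less common, at 12.5% against 17.6% (−5.16 points, −7.72 to −2.30). In the single replicates the median was −174.5 and −145.5 bp.

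**Figure D2:**
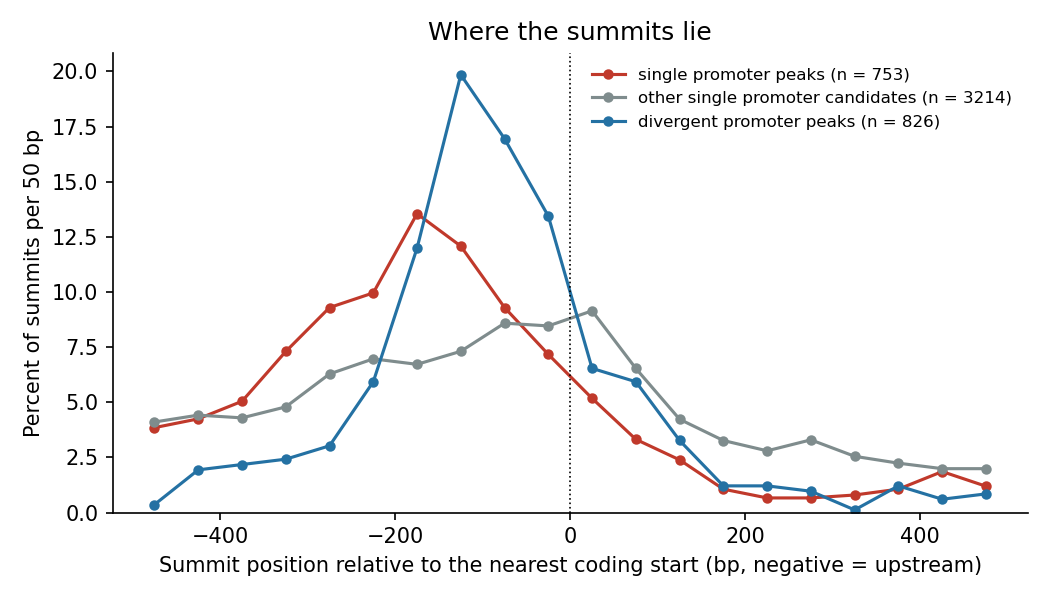
Percent of summits in 50 bp steps of position relative to the nearest coding start, for the single promoter peaks (red), the other candidates at single promoters (grey) and the divergent promoter peaks (blue). The red curve is highest from 200 to 150 bp upstream, at 13.5% of summits, where the grey curve holds 6.72%.

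The upstream position went with rank. Among single promoter peaks in the first 500 ranks of the IDR list, 107 of 118 lay upstream (90.7%) at a median of −184 bp, and in the next 500 ranks 92 of 104 did (88.5%) at −188.5 bp. The share was 84.5% from there to rank 2000 and 75.8% at the lower ranks, where the median was −123 bp. The highest tier exceeded the lowest by 14.9 points (7.14 to 21.1). At genes with 1 annotated start, where no other annotated start of the same gene can be taken by mistake, 88.8% of the peaks lay upstream, against 66.6% of the other candidates. For the 533 peaks nearest to a gene's outermost start the shares were 84.8% and 64.8%, and for the 220 nearest to an internal start 74.5% and 54.5%. Against the divergent promoter peaks, of which 78.1% lay upstream, the difference of 3.72 points had an interval that included 0 (−0.25 to 7.64). It was 1.71 points in replicate 1 (−2.04 to 5.43) and 5.28 in replicate 2 (1.12 to 9.39). The divergent median of −94.5 bp cannot be set beside −161, because between 2 starts the nearer one is taken. The upstream shares of the 2 classes carry a like limit, since a summit between 2 divergent starts counts as upstream of either.

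By annotation, 384 summits (51.0%) were intergenic, 226 (30.01%) intronic and 113 (15.0%) in a 5′ UTR, with 19 in a 3′ UTR, 9 in a non-coding exon and 2 in coding sequence. Of the intronic summits, 185 were in an intron of the gene whose start they marked. The 753 summits belonged to 690 genes. Of these, 617 had 1 summit, 67 had 2 and 6 had more: Ptpmeg2 had 5, dnc and pyd 4 each, and Moe, Rtnl1 and l(3)neo38 3 each. Those 6 genes had 5 to 9 annotated starts.

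The 690 genes were 8.2% of the 8419 coding genes without a divergent neighbour, and cytosolic ribosomal protein genes stood well above that share. A peak was present at 19 of their 30 single promoters (63.3%, 45.5 to 78.1), 9 of 14 for the large and 10 of 16 for the small subunit, and at 18 of 30 in each replicate alone. The scores were moderate: RpL23A had 741 at rank 308, RpS4 705, RpL30 654 and RpL24 653, while RpS26 and RpS3, at ranks 3961 and 3988, had 166 each. Those without a peak included RpL10, RpL15, RpS9 and RpS24. None of 15 mitochondrial ribosomal protein genes had a peak, and 2 of 25 translation factor genes did: eEF1gamma, a subunit of elongation factor 1, with 819, and eEF2, the translocation factor, with 277. Replicate 1 alone gave 0 mitochondrial and 2 translation factor genes, and replicate 2 alone gave 1 and 4.

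At ribosomal protein genes the summit lay close to the start, mostly just upstream of it. Of the 21 peaks nearest to such a start, 17 lay within 50 bp of it (80.95%, 60 to 92.3), against 77 of the other 732 single promoter peaks (10.5%, 8.50 to 12.95), a difference of 70.4 points (49.3 to 82.0). The median was −25 bp (−40 to −10), against −165 bp (−177 to −152). RpL30 at 19 bp and RpS29 at 12 bp lay farthest downstream, RpS4 at −5, RpL27A at 6 and RpL11 at 8 bp were closest, and RpS3, RpL37A and RpS14b lay 20 to 22 bp upstream. Outside the 50 bp were RpL23A at −63 bp, RpS27A at −57 bp and 1 of the 2 summits each of RpL27A, at −231 bp, and RpS23, at −417 bp. Both replicates gave the same picture, with 14 of 20 against 62 of 718 in replicate 1 and 15 of 19 against 107 of 757 in replicate 2. The divergent promoter peaks, a separate set of genes, did so too: 35 of 46 at ribosomal protein genes lay within 50 bp of the nearest start, against 130 of 780 at other genes. eEF1gamma at −27 bp and eEF2 at −2 bp also lay close to the start, and so did RpL37-1, at −11 bp and rank 1985, which the list's symbol rule leaves out and which is counted with the other genes. These 3 were picked out after their values were seen.

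**Figure D3:**
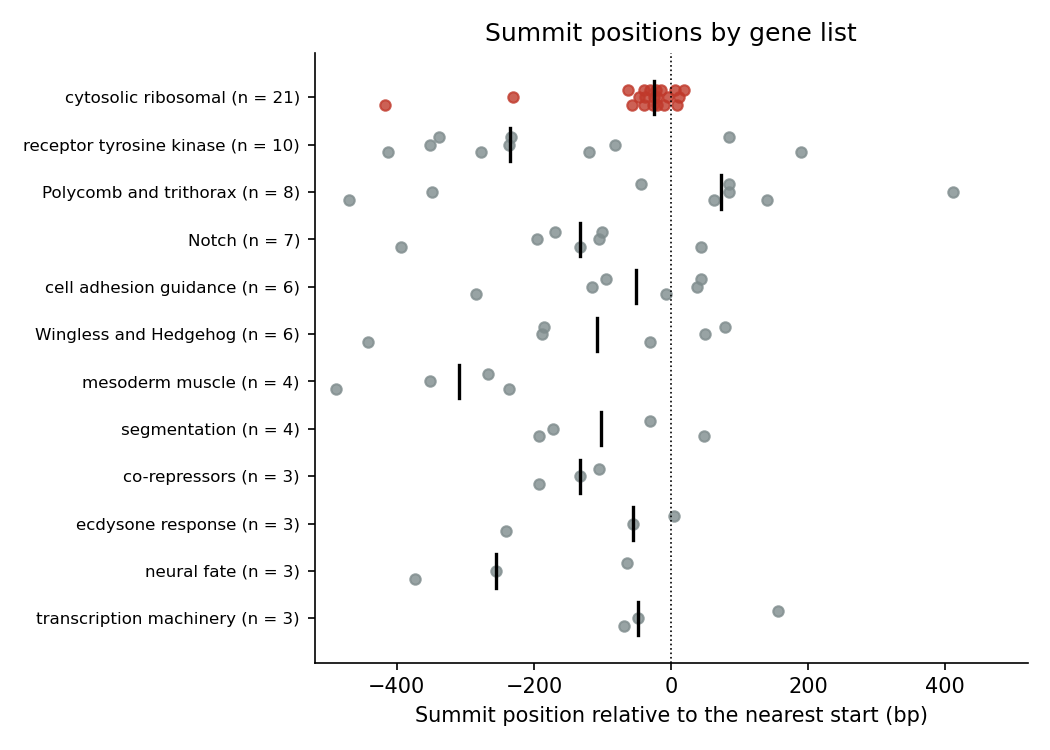
Summit position relative to the nearest coding start for each single promoter peak of the gene lists with 3 or more peaks; black bars are medians, and some genes have more than 1 summit or stand in more than 1 list. The 21 ribosomal protein summits (red) have a median of −25 bp, and the summits of the other lists (grey) spread over the window.

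The ribosomal protein summits also carried other words. Motif 6, searched as GGTATTTT on both strands, was within 50 bp of 6 of the 21 summits and of 4 of the other 732, a difference of 28.0 points (13.2 to 49.4). Motif 1, searched as GGTCACAC, was near 4 of 21 and 4 of 732 (18.5 points, 7.09 to 39.5), and the DRE, searched as TATCGATA, near 2 of 21 and 8 of 732 (8.43 points, 1.48 to 27.8). In replicate 1 motif 6 was near 5 of 20 ribosomal and 4 of 718 other summits, and in replicate 2 near 3 of 19 and 4 of 757. The order of the words differed at divergent promoter peaks. There the DRE was near 12 of 46 ribosomal and 18 of 780 other summits. Motif 6 was near 4 of the 46 and 9 of the 780, and motif 1 near 4 and 10. Around the start site rather than the summit, motif 6 was within 50 bp at 5 of the 19 ribosomal genes with a peak and 1 of the 11 without one, against 12 of 653 other genes with a peak and 127 of 7718 other genes without one. Motif 1 was there at 4 of the 19 and 2 of the 11, against 29 of 653 and 266 of 7718. A run of 5 or more C and T bases over the start site was present at 9 of the 19 ribosomal genes with a peak and 4 of the 11 without one, against 90 of 653 other genes with a peak and 764 of 7718 other genes without one. All ribosomal counts are small. GC content within 50 bp of the summit was 44.8 ± 5.69% at the ribosomal genes (SD, n = 21 peaks) and 34.7 ± 10.01% at the others (SD, n = 732 peaks); its part in these differences was not tested. Among the 60 bases just before the start, 11 windows of ribosomal genes with a peak held no annotated exon and could be shown; 4 of them had a match to motif 6, motif 1 or the DRE and 7 had none. The lines below give the 4 with a match, in capitals, and RpL23A, the highest-scoring of those without one, 5′ to 3′ on the gene's strand.
RpL30 (chr2L:19009307-19009366, minus strand): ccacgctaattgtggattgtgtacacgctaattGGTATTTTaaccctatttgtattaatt
RpL24 (chr2L:13395132-13395191, minus strand): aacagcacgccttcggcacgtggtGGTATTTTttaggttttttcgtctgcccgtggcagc
RpL27 (chr3R:25685052-25685111, minus strand): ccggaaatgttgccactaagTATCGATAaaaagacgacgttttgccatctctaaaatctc
RpS3 (chr3R:23358752-23358811, plus strand): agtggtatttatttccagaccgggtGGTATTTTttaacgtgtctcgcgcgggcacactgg
RpL23A (chr3L:1668655-1668714, minus strand): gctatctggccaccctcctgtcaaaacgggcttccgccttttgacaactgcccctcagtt
The motif 6 word ended 20 bases before the start in RpL30, 29 in RpL24 and 28 in RpS3, and the DRE of RpL27 ended 33 bases before it.

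Among the developmental lists, several stood above the background of 8.2% with few genes behind each. No list was matched to this background for gene length or number of starts, and the part of these features was not tested. In the Wingless and Hedgehog list 5 of 12 single promoters had a peak (41.7%, 19.3 to 68.1): the kinase gene sgg with 853, the co-receptor gene arr with 251, the ligand genes Wnt6 with 250 and Wnt4 with 220, and the Hedgehog receptor gene ptc with 178. In the list for receptor tyrosine kinase signalling 6 of 15 had one (40%, 19.8 to 64.3): the secreted inhibitor gene aos with 637, the fibroblast growth factor receptor gene htl with 277, the kinase gene Raf with 190, and the ETS transcription factor genes aop with 179 and pnt with 173. The remaining member, pyd with 245, encodes a cell junction scaffold protein, so htl is the receptor among the 6. Candidates overlapping the aop peak ranked no higher than 9073 in replicate 1 and 13276 in replicate 2, outside the highest candidates of each. In the Polycomb and trithorax list 4 of 11 had one (36.4%, 15.2 to 64.6), namely ph-p, Su(z)2 with 418, Psc with 337 and ph-d with 199. All 4 encode or resemble subunits of PRC1, and their 8 summits lay at 411, 140, 85, 84, 62, −44, −348 and −470 bp, so 5 of 8 were downstream of the start. Of the Notch genes 5 of 15 had one (33.3%, 15.2 to 58.3): the co-repressor gene gro with 809, E(spl)m7-HLH with 647, numb with 521, the ubiquitin ligase gene mib1 with 206 and E(spl)mbeta-HLH with 172. The intervals of these 4 lists and those of the cell adhesion list (6 of 23) and the mesoderm list (4 of 18) lay above 8.2%. Several of these counts moved between replicates: the receptor tyrosine kinase list had 3 in replicate 1 and 6 in replicate 2, the Notch list 3 and 5, and the cell adhesion list 3 and 7, while the Polycomb list had 4 in each. The genes counted in a replicate need not be those named here.

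At the other end, 1 of 101 cuticle protein genes had a peak (Cpr65Av, 200) and 1 of 185 chemosensory genes (Obp99b, 403), and their intervals of 0.175 to 5.40% and 0.0955 to 2.998% lay below 8.2%. No peak was found at the single promoters of 8 Hox genes, 15 replication and cell cycle genes, 15 chorion and yolk genes or 4 insulator genes, where the Wilson upper limits were 32.4%, 20.4%, 20.4% and 49.0%. Among the highest candidates of replicate 1 alone, 1 Hox gene, 1 replication and cell cycle gene and 1 insulator gene had one. Replicate 2 had 0 in each of these lists. Segmentation genes had 4 of 22 (nkd with 371, bcd with 284, hry with 207 and ptc), neural fate genes 3 of 22 (SoxN, elav with 952 and vnd with 267), ecdysone genes 3 of 14 (E23, Eip75B with 372 and Eip74EF with 174), JAK-STAT and Toll genes 2 of 11 (Toll-7 and Stat92E with 672) and heat shock genes 2 of 13 (Hsp27 and Hsc70-3 with 327). Transcription machinery had 3 of 22, TGF-beta 1 of 10, oxidative phosphorylation 2 of 36, the proteasome 1 of 10, aminoacyl-tRNA synthetases 1 of 10, germline 1 of 4 and splicing 1 of 4. The co-repressor list had 2 of 3, gro with 809 and bowl with 772; bowl encodes an Odd-skipped family transcription factor that binds Groucho rather than a co-repressor.

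**Figure D4:**
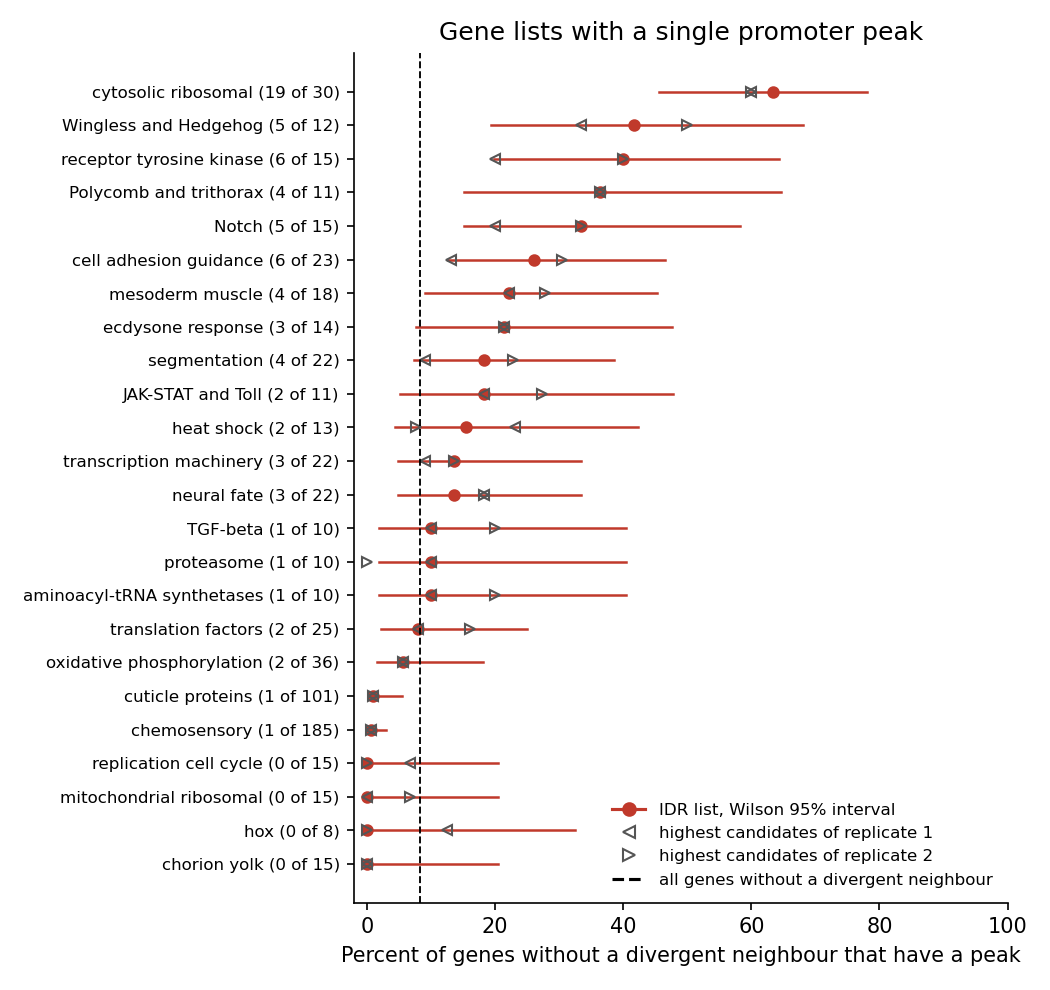
Percent of the genes without a divergent neighbour in each list of 8 or more such genes that have a single promoter peak, with Wilson 95% intervals; open triangles give the highest candidates of each replicate and the dashed line the 8.2% of all such genes. Ribosomal protein genes stand at 63.3%, and cuticle and chemosensory genes stand below the line.

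Genes with a single promoter peak were longer, with more starts, than genes that had only another candidate or none. Their median length was 5972.5 bp (5058 to 6685), against 3653.5 bp (3407 to 3961) for the 2112 genes with another candidate alone and 1660 bp for the 5617 with no candidate. More than 1 annotated start was present in 53.2% of genes with a peak and 36.8% of those with another candidate, a difference of 16.4 points (12.1 to 20.6); a gene with more starts covers more sequence and so can meet the rule more often. A further IDR peak lay inside the gene, over 500 bp from its starts, in 27.25% against 14.96% (12.3 points, 8.72 to 16.02). Among genes of 10 kb or longer it was 156 of 252 (61.9%) against 225 of 564 (39.9%), a difference of 22.0 points (14.6 to 29.0). The gap to the gene upstream was close in both groups, with medians of 1092.5 bp (931 to 1286) and 1140 bp (1060 to 1248). By arm, 2L held 154 of the peaks, 20.5% against 17.1% of the other single promoter candidates (3.31 points, 0.268 to 6.59), 2R held 135, 17.9% against 21.2% (−3.23 points, −6.18 to −0.018), and the 4th chromosome held 7.

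Sequence at the summits was rich in A and T. GC content within 50 bp averaged 35.0 ± 10.1% over the 753 summits (SD over peaks), against 41.0 ± 10.4% over the 3214 other single promoter candidates, and the medians of 33.7% (32.7 to 34.7) and 40.6% (40.6 to 41.6) had separate intervals. In replicate 1 the means were 33.9% and 40.2%, and in replicate 2 36.3% and 42.0%. Divergent promoter peaks averaged 33.3% and peaks away from starts 34.4%. The dip lay around the summit: mean GC was 33.9% in the 20 bp step just upstream of it, 38.7% 250 bp upstream and 46.6% 250 bp downstream. The 250 bp before the outermost start had 39.4% GC at the genes with a peak and 40.5% at genes with another candidate alone. That window can hold the summit itself, and 220 of the 753 peaks lay nearest to an internal start, so it cannot show how local the dip was. Bases in A and T runs of 6 or more, as in the capitals of the windows above, had a median of 25 per window (23 to 27), against 14 (14 to 15) for the other candidates.

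**Figure D5:**
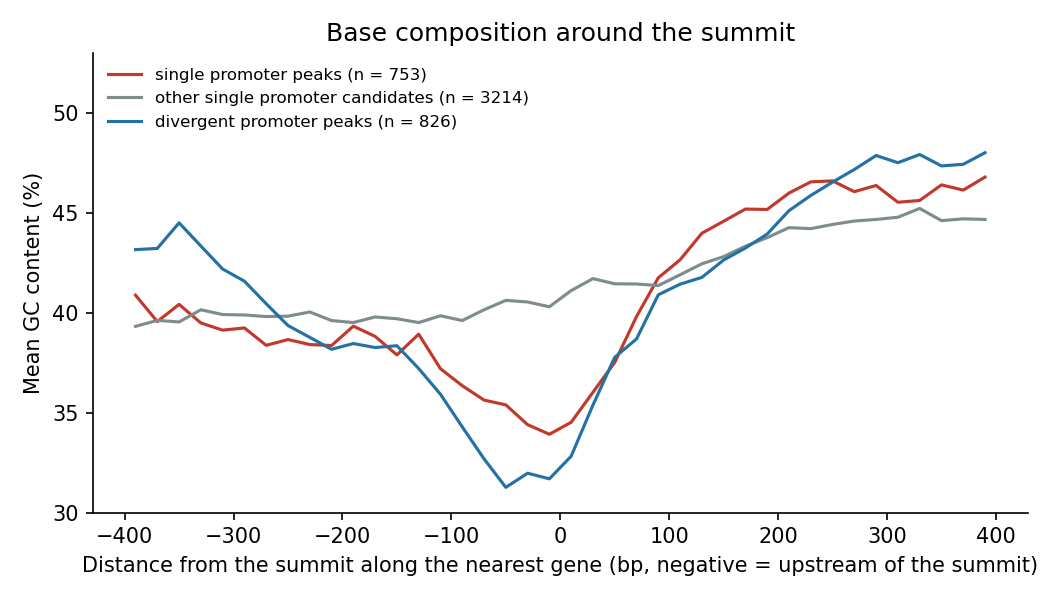
Mean GC content in 20 bp steps from 400 bp upstream to 400 bp downstream of the summit, along the strand of the nearest gene, for single promoter peaks (red), other candidates at single promoters (grey) and divergent promoter peaks (blue). The red curve falls to 33.9% at the summit, where the grey curve is at 40.3%.

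The word TATAAA was within 50 bp of 184 of 753 summits (24.4%, 21.5 to 27.6), against 443 of 3214 other candidates (13.8%), a difference of 10.7 points (7.47 to 14.1), which was 9.20 points in replicate 2 alone and 6.21 in replicate 1 alone. With the other candidates weighted to the GC content of the single promoter peaks it was in 20.9%, which left 3.56 points. Divergent promoter peaks had the word near 26.8% of summits (single minus divergent −2.32 points, −6.60 to 1.998). Peaks away from every start had it near 20.5% (single minus away 3.96 points, 0.587 to 7.525). The word near the summit was therefore not particular to the single promoter peaks. At the place of a TATA box the word was less common at genes with a peak: beginning 40 to 20 bp before the outermost start, on the gene's strand, it was found at 22 of 690 genes with a peak (3.19%), 151 of 2112 with another candidate alone (7.15%) and 610 of 5617 with none (10.9%). The difference between the first pair was −3.96 points (−5.56 to −2.07). Only outermost starts were read, although 220 of the 753 peaks lay nearest to an internal start.

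Other words set single promoter peaks apart from peaks away from starts. ATCGAT, the core of the DRE, was near 6.51% of single promoter summits and 1.85% of summits away from starts (4.65 points, 2.98 to 6.70), and the whole DRE near 1.33% and 0.0842%; divergent promoter peaks had the DRE at 3.63%. Motif 1 was near 1.06% and 0.126%. Other single promoter candidates had ATCGAT at 5.32%, and the DRE and motif 1 at 1.77% each. Divergent promoter peaks had ATCGAT at 7.4% and motif 1 at 1.7%. These promoter words were therefore not particular to the single promoter peaks. The forkhead factor word TGTTTAC was less common than at summits away from starts, at 3.45% against 6.82% (−3.37 points, −4.91 to −1.55). TATTTAC, at 5.58% against 9.65% (−4.07 points, −5.97 to −1.88), and TGTTTGC, at 4.65% against 8.13% (−3.48 points, −5.22 to −1.45), had been drawn from these same peaks in earlier work. Against other single promoter candidates TATTTAC was more common by 2.12 points (0.54 to 4.09), and by 0.92 points at matched GC content. In the 250 bp before the outermost start, GAGAG, the word of the GAGA factor, was at 41.0% of genes with a peak, 35.5% of genes with another candidate alone (5.55 points, 1.39 to 9.77) and 25.6% of genes with none. Around the summit itself it was near 12.2% of single promoter peaks and 13.9% of other candidates (−1.69 points, −4.17 to 1.09). Of single promoter peaks and other candidates, CAGCTG was near 4.52% and 5.32%, GATAA near 21.2% and 21.3%, CAGGTAG near 0.531% and 0.871%, TCAGT near 16.3% and 20.4%, CAGCGCTG near 0.266% and 0.311%, and AAAAAA near 24.97% and 22.9%. Weighting the other candidates to the GC content of the single promoter peaks turned 4 of these differences round, to −6.04 points for AAAAAA, 1.64 points for GAGAG, 0.566 points for CAGCTG and 0.125 points for CAGCGCTG.

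CG3407 itself was among the 753, with a summit 51 bp upstream of its start, a score of 217 and rank 2707 (2738 and 2634 in the replicates). The line also carries the tagged transgene of CG3407, and its part in this peak was not tested.

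Peaks lay close to both sides of the rule's limits. Just inside 500 bp were CG10543 at −500 bp with a score of 249.1 and LIMK1 at 500 bp with 202.7, and just outside were CrebA and Cyp310a1, both at −501 bp, with 226.2 and 233.9. At the 1000 bp limit, CG11961 was kept with its divergent neighbour Rgk1 starting 1007 bp away, with scores of 199.8 and 179.6, while Sarm was left out with CG42591 at 992 bp and a score of 450.4, and CG15465 with CG32767 at 991 bp and 170.5. Most peaks were far from that second limit, since 610 of the 753 had no divergent start within 2000 bp. Of all 753, 20 summits lay near the starts of 2 coding genes, 41 had another gene's start within the window and 95 lay over another gene, for which a peak cannot be assigned to 1 gene.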

How the data were processed

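The deposited files are peak lists on dm6: an IDR list of 4089 peaks, a pooled list of 30000 candidates made from both replicates and a list of 30000 for each replicate. Their score column, made by the authors' peak caller, is on each list's own scale, and the deposited −log10 q values are so often tied that they were not used for ranking. The IDR list holds the highest-scoring pooled candidates, and the pooled list is labelled as holding background as well as peaks. No label or header used here names the peak caller, the read aligner or the cut-off of the IDR step; the depth per library is unknown, and intervals cover counting error only.

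Summits were set against Ensembl release 115 gene starts (BDGP6.54, transposable elements left out) and the RefSeq copy of the same assembly, which also gave the sequences, since the promoter table foreseen was not used here. No sequence of arm 2R is printed. Python 3.11.15, NumPy 2.4.6, SciPy 1.17.1 and matplotlib 3.10.9 were used; shares have Wilson intervals, differences Newcombe intervals and medians exact order-statistic intervals, all at 95%, and no p-value was computed. The rule and intervals were tested on made-up data, where 2000 of 2000 summits got their class. The 28 gene lists are not only groups of the embryo, since cuticle, chemosensory, germline, and chorion and yolk genes are among them. In all, 15 words were searched on both strands. Other windows, divergence distances, start sets, list lengths and each replicate alone were tried.

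The members, lists and words were chosen with earlier results of these data known. Outdated gene symbols in the lists were replaced after the counts had been seen, which added genes to the Notch, receptor tyrosine kinase, segmentation and ecdysone lists. The rank tiers, the bands of position, the split by kind of start, the run lengths, the TATAAA position, the gene features, the words before gene starts, the weighting by GC content and the ribosomal position and word comparisons were added after seeing the data. A wider search of words was made and is not reported. Named genes are the first 25 met going down the members that overlap one of the highest candidates of both replicates, each gene by its highest summit (a second ph-p peak adds no gene), up to 4 per list for each list with a peak (some more are given), CG3407, the peaks at the rule's limits and those with the most different replicate ranks; names outside this rule are those of short counts, chosen after their values were seen. The labels' description of the libraries as an input control is set aside as stated in the text.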

Additional observations from a re-analysis of the deposited data

How the results depend on the processing

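With a start window of 250 bp there were 487 single promoter peaks, the median summit was at −112 bp, 5.666% of genes without a divergent neighbour had a peak, and the TATTTAC difference to other candidates was 2.89 points. A window of 1000 bp gave an upstream share of 75.56%, an upstream difference to other candidates of 16.23 points, 10.19% of genes, and word differences of 7.477 points for TATAAA and 3.789 for TATTTAC. A divergence distance of 500 bp gave 9.347% of genes and 33 ribosomal protein genes with a peak, since more genes then count as single; divergence by coding genes only gave 8.636% of genes. The outermost start alone gave 7.371% of genes and an upstream difference to divergent peaks of 6.888 points. The upper part of the IDR list by score, down to its middle rank and so with fewer peaks by construction, gave 399 single promoter peaks, an upstream share of 86.97%, an upstream difference to other candidates of 23.63 points, an IDR share of 10.06%, 4.561% of genes, and word differences of 12.8 and 1.564 points. There the median score difference to divergent peaks was 26.57, against −7.849 in the whole list, a change of sign whose cause was not tested. With 100 bp on each side of the summit the TATTTAC difference was 3.488 points. Weighting to the GC content of the single promoter peaks, chosen after seeing the data, gave 3.555 points for TATAAA and 0.9187 for TATTTAC. Leaving out 1 replicate gave 8.113 to 8.481% of genes, 6.214 to 9.196 points for TATAAA, 2.245 to 2.838 for TATTTAC and, for the ribosomal share within 50 bp of the start, 61.36 to 64.81 points. The other 83 values under these settings stayed within the spread between replicates or, for counts, within 1.5 times. No paired analysis was possible because there is 1 group. All differences are between classes of regions in 2 replicates that share a control, and unknown depth limits how firmly an absent peak can be read.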
